A study of Rattus norvegicus with 31 samples.

Results

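Microglia are the resident macrophages of the brain, which survey the tissue, clear debris and prune synapses. They depend on signals through the colony-stimulating factor receptor Csf1r, they carry the chemokine receptor Cx3cr1 and the integrin Itgam, and they are the main source of the complement protein C1q in the brain. Their marker genes tend to become more abundant in aged brain tissue, where microglia take on a more reactive state. The 9 genes Csf1r, Cx3cr1, Aif1, Itgam, C1qa, C1qb, C1qc, Tyrobp and Ptprc were taken as microglia markers, with every probeset (a group of short probes whose signal follows the amount of 1 mRNA) that the array annotation gives to 1 of these symbols alone. Of the 9 genes, 6 had a probeset in the table of 16204 probesets, with 1 probeset each: Csf1r, Aif1, C1qa, C1qb, C1qc and Ptprc. The signals of Cx3cr1, Itgam and Tyrobp are not analysed here.

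The signals came from the CA3 region of the hippocampus of 31 male Long-Evans rats aged 24 to 26 months, an outbred line in which some animals lose spatial memory with age and others do not. Rats were classed as aged unimpaired (AU) or aged impaired (AI) by a learning index from an earlier water maze test, and each was then given 1 session of 8 trials in another water maze with a visible platform. In the spatial task (S) the platform stayed in place among prominent cues, and in the non-spatial task (NS) it was moved and the cues were taken away. There were 8 rats each in AU-S, AI-S and AU-NS and 7 in AI-NS, and with the tasks pooled the 16 unimpaired rats are called AU-act and the 15 impaired rats AI-act. CA3 was cut out by hand from slices, both hemispheres of a rat were combined, and each rat had its own array, so a signal averages over all cells of the piece. In such tissue, fewer microglia and less RNA per microglial cell cannot be told apart. Young rats and rats without training are not analysed here, so the values say nothing of age or of training itself.

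None of the microglia markers passed the test in any comparison. Signals are on the log2 scale of the deposited gcRMA values, where a step of 1 is a doubling, and groups were compared with limma, a linear model fitted to all 16204 probesets whose p-values were adjusted over all of them. With an adjusted p under 0.1 within a task or within a phenotype and under 0.05 with the tasks pooled, limma called 0 of 6 markers for AU-S v AI-S, where 0.413% of all probesets were called, 0 of 6 for AU-act v AI-act, where 5.51% were called, and 0 of 6 for AU-NS v AI-NS, AI-S v AI-NS and AU-S v AU-NS, where 0% were called. At these shares a count of 0 of 6 is near the background and is not a result about the markers. The signals of the markers varied from rat to rat, and together, as is described after the comparisons.

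Csf1r encodes the receptor for the cytokines Csf1 and Il34, on which microglia depend for survival. Its log2 signal (probeset 1388784_at) ranged from 9.72 to 10.33 with a median of 10.03 in AU-S, from 9.69 to 10.68 with a median of 10.09 in AI-S, from 9.70 to 10.14 with a median of 9.92 in AU-NS, and from 9.74 to 10.47 with a median of 9.86 in AI-NS. The 4 groups overlapped, and the lowest and the highest rat of all 31 were both AI-S rats. Over all rats the signal spanned 1.99-fold, the narrowest span of the 6 markers.

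Aif1, which encodes the calcium-binding protein Iba1 used to stain microglia, spanned 4.33-fold. Its probeset (1368558_s_at, a type of probeset whose probes can match more than 1 transcript) had log2 signals from 7.72 to 8.71 with a median of 7.94 in AU-S, from 8.02 to 9.13 with a median of 8.19 in AI-S, from 7.23 to 8.56 with a median of 7.64 in AU-NS, and from 7.02 to 8.75 with a median of 7.88 in AI-NS. The groups overlapped here too, although all 8 AI-S rats lay above the AI-NS mean of 7.84 and all 8 AU-S rats above the AU-NS mean of 7.67.

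The 3 chains of C1q, the protein that starts the classical complement pathway and tags synapses for removal, come from C1qa, C1qb and C1qc. The C1qa log2 signal (1376652_at) ranged from 9.35 to 10.54 with a median of 10.13 in AU-S, from 9.91 to 10.75 with a median of 10.09 in AI-S, from 9.69 to 10.52 with a median of 9.88 in AU-NS, and from 9.54 to 10.81 with a median of 9.91 in AI-NS. That of C1qb (1370215_at) ranged from 7.72 to 9.17 with a median of 8.55 in AU-S, from 8.12 to 9.40 with a median of 8.45 in AI-S, from 7.75 to 9.29 with a median of 8.49 in AU-NS, and from 7.45 to 9.73 with a median of 8.53 in AI-NS. That of C1qc (1373025_at) ranged from 6.71 to 7.46 with a median of 7.14 in AU-S, from 6.92 to 8.10 with a median of 7.31 in AI-S, from 6.85 to 8.03 with a median of 7.14 in AU-NS, and from 6.84 to 8.68 with a median of 7.11 in AI-NS. For each chain the groups overlapped, the medians of the 4 groups lay close together, and the highest signal of all 31 rats came from the same AI-NS rat, replicate 7. The spans over all rats were 2.76-fold for C1qa, 4.87-fold for C1qb and 3.92-fold for C1qc.

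Ptprc encodes CD45, a phosphatase of all white blood cells that resting microglia carry at a low level. Its log2 signal (1390798_at) lay near the floor of the table, whose smallest probeset mean was 5.0002, and ranged from 5.14 to 6.40 with a median of 5.65 in AU-S, from 5.02 to 7.51 with a median of 5.74 in AI-S, from 5.47 to 6.32 with a median of 5.70 in AU-NS, and from 5.17 to 6.69 with a median of 5.90 in AI-NS. The groups overlapped, and both the lowest and the highest of the 31 signals were from AI-S rats, replicates 1 and 5. Its span of 5.61-fold was the widest of the 6.

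**Figure D1:**
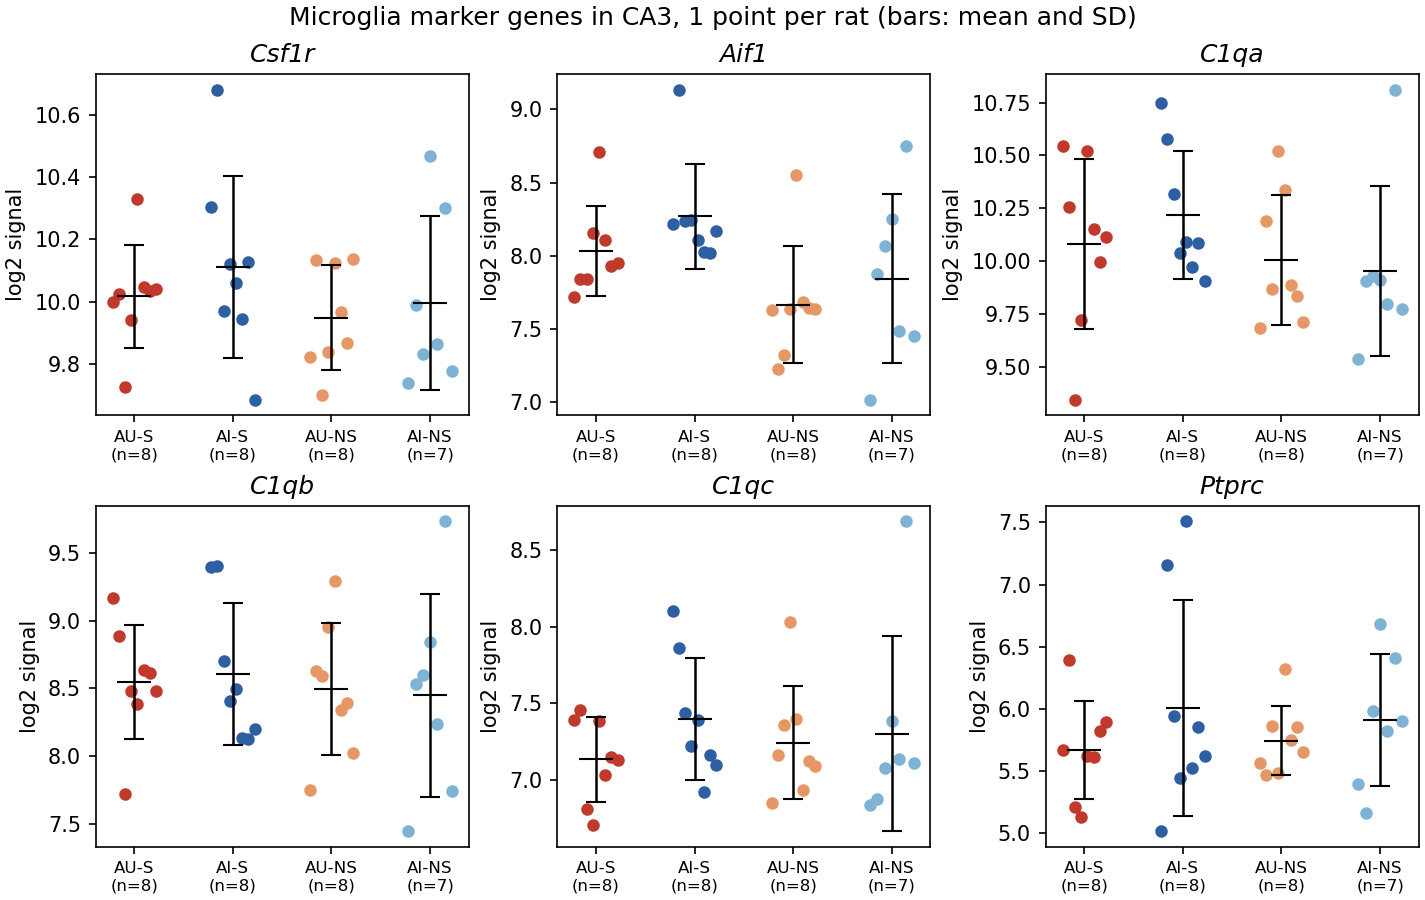
Log2 signal (vertical axis) of each of the 6 microglia markers in the rats of each group, with 1 point per rat and bars for the mean and SD of the group. The points of the 4 groups overlap for every gene, and single rats stand high, such as AI-NS replicate 7 at 10.81 for C1qa and 8.68 for C1qc.

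The order of the group means differed between the genes, except that AI-S came first for all 6. It was AI-S, AU-S, AI-NS, AU-NS for Csf1r and Aif1, AI-S, AU-S, AU-NS, AI-NS for C1qa and C1qb, and AI-S, AI-NS, AU-NS, AU-S for C1qc and Ptprc. The gaps between neighbours in these orders were smaller than the spread of single rats: the widest was 0.24 on the log2 scale for Aif1, where the pooled SD within groups was 0.42, and in each of the 6 genes all 3 gaps were below that SD. From the first to the last group the means of Aif1 spanned 0.60, more than its SD, and those of the other 5 spanned 0.16 to 0.34, less than theirs.

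After spatial training, the log2 differences (AU-S minus AI-S) of the 6 markers were all negative, with a median of -0.19, while over all probesets the median was 0.011 and 53.9% were positive. The 6 markers were read in the same rats and varied together, as described below, so their 6 signs are not independent in any comparison. Ptprc had -0.34 (SE 0.31, 95% interval -0.99 to 0.31), C1qc -0.26 (SE 0.16, -0.60 to 0.069) and Aif1 -0.24 (SE 0.16, -0.56 to 0.090). C1qa, Csf1r and C1qb had -0.14, -0.094 and -0.062. Of the 8 AU-S rats only 1 lay above the AI-S mean for Ptprc, C1qc, Aif1 and Csf1r, against 3 for C1qa and 4 for C1qb. Single high rats raised some of these means, so the counts do not measure how far the groups were apart. The AI-S mean and median were 6.009 and 5.738 for Ptprc and 8.27 and 8.193 for Aif1, and many AI-S rats also lay below the mean. The values leaned on single rats: Ptprc had -0.12 without AI-S replicate 5, Aif1 -0.11 and Csf1r -0.013 without AI-S replicate 2, C1qc -0.165 without AI-S replicate 1, and C1qa -0.031 without AU-S replicate 3. For C1qb the sign was not fixed with 1 array left out (-0.151 to 0.0559). Each interval held 0, and the smallest adjusted p from limma was 0.519, for C1qc, with 0 of 6 at an unadjusted p under 0.05 where 12.3% of all probesets were.

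After non-spatial training the 6 log2 differences (AU-NS minus AI-NS) were of both signs, 2 positive and 4 negative, with a median of -0.053. They ran from -0.18 (SE 0.23) for Aif1 to 0.053 (SE 0.17) for C1qa, and the smallest adjusted p from limma was 0.805, with 0 of 6 at an unadjusted p under 0.05 where 11.5% of all probesets were. Whether AU and AI differed by another amount in the 2 tasks was tested directly with the interaction of phenotype and task. Its log2 values were negative for all 6 markers, from -0.21 for C1qc to -0.047 for Csf1r, limma called 0 of 6 and 0% of all probesets, and 0 of 6 had an unadjusted p under 0.05, as against 2.44% of all probesets.

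With the tasks pooled, AU-act minus AI-act was negative for all 6 markers, with a median of -0.12 on the log2 scale against 0.0072 over all probesets. Here too the 6 signs are not independent, since the markers varied together in the same rats. Ptprc had -0.25 (SE 0.19, 95% interval -0.64 to 0.13), Aif1 -0.22 (SE 0.15, -0.54 to 0.094) and C1qc -0.16 (SE 0.14, -0.46 to 0.13). Smaller values were seen for Csf1r at -0.075 (SE 0.080, -0.24 to 0.089), C1qa at -0.051 (SE 0.12, -0.30 to 0.20) and C1qb at -0.013 (SE 0.18, -0.39 to 0.36). For C1qa and C1qb 8 of the 16 AU-act rats lay above the AI-act mean, and for Ptprc 2 did. The AI-act mean of Ptprc was 5.963 and included single high rats, such as AI-S replicate 5 at 7.51. The adjusted p from limma was 0.459 or more for each marker, and 0 of 6 had an unadjusted p under 0.05, where 19.5% of all probesets did. Without AI-S replicate 2 Aif1 had -0.145 and Csf1r -0.030, without AI-S replicate 5 Ptprc had -0.144, and without AI-NS replicate 7 C1qc had -0.070. The sign was not fixed with 1 array left out for C1qb (-0.0903 to 0.0728) and C1qa (-0.0902 to 0.000481). The intervals over all rats allow an AU-act level between 0.644 times the AI-act level (Ptprc) and 1.28 times it (C1qb).

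A measure of RNA quality differed between the same groups. Probesets against both ends of the beta-actin and Gapdh mRNAs serve as controls on the array. The log2 signal at the 3′ end minus that at the 5′ end, which is larger when RNA is shorter, averaged 1.45 ± 0.097 (SD, n = 16) in AU-act and 1.59 ± 0.13 (SD, n = 15) in AI-act (two-sided permutation test with 100000 resamples, p = 0.00078). Around the group means it had a Pearson's r of -0.37 with C1qb over the 31 arrays (rho -0.40, permutation p = 0.0425, 0.255 after adjustment over the 6 markers, and r = -0.29 without the 2 farthest arrays), and of -0.14 to 0.11 with the other 5, whose adjusted p was 0.848 or more. With this measure as a covariate limma called 1 of the 16204 probesets for AU-S v AI-S and 1 for AU-act v AI-act, so a count of 0 of 6 markers says nothing there. The log2 differences then went to -0.239 for C1qb and -0.117 for Aif1 in AU-S minus AI-S, and to -0.254 for C1qb, -0.249 for C1qc, -0.103 for C1qa and -0.130 for Aif1 in AU-act minus AI-act.

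**Figure D2:**
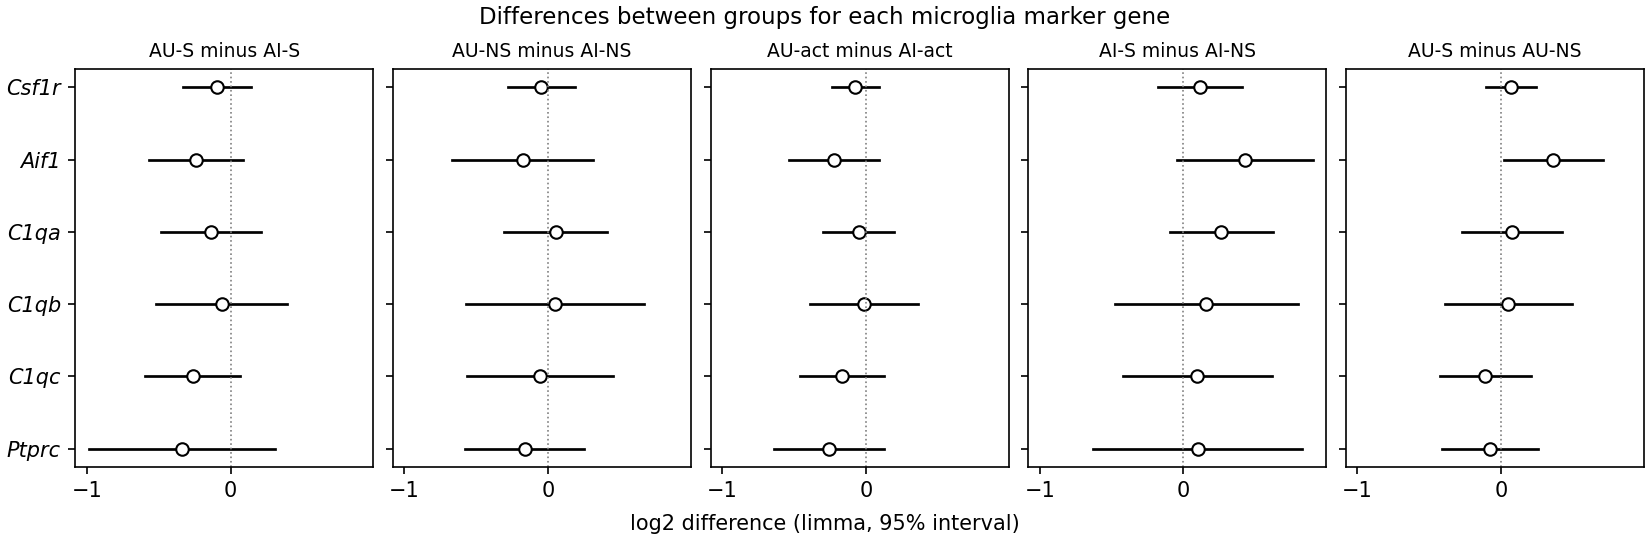
Log2 difference between groups (horizontal axis, circle) with its 95% interval from limma (line) for each microglia marker, in 5 comparisons. All intervals hold 0 except that of Aif1 in AU-S minus AU-NS, which runs from 0.019 to 0.71 and did not pass after adjustment.

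The same genes were compared between the tasks within each phenotype. In AI rats all 6 log2 differences (AI-S minus AI-NS) were positive, with a median of 0.14 against -0.0078 over all probesets, of which 47.3% were positive. Aif1 had 0.43 (SE 0.22, 95% interval -0.048 to 0.90), C1qa 0.26 (SE 0.17, -0.090 to 0.62), C1qb 0.16, Csf1r 0.12, Ptprc 0.099 and C1qc 0.097. Without AI-NS replicate 7 C1qa had 0.408, C1qb 0.373 and C1qc 0.327, and without AI-S replicate 2 Csf1r had 0.035. The sign was not fixed with 1 array left out for C1qb (-0.00717 to 0.373), C1qc (-0.00328 to 0.327) and Ptprc (-0.115 to 0.241). The smallest adjusted p from limma was 0.862 and 0 of 6 had an unadjusted p under 0.05, as against 4.09% of all probesets. This comparison and that of AU-S with AI-S share the AI-S arrays, so their signs are not independent.

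In AU rats 4 of 6 log2 differences (AU-S minus AU-NS) were positive, with a median of 0.060. Aif1 had 0.36 (SE 0.16, 95% interval 0.019 to 0.71), with all 8 AU-S rats above the AU-NS mean, an unadjusted p of 0.0399 and an adjusted p of 0.612 from limma. It was the only one of the 6 with an unadjusted p under 0.05, where 8.12% of all probesets were. Values for the other 5 ran from -0.11 (SE 0.15) for C1qc to 0.076 (SE 0.16) for C1qa. With the phenotypes pooled and phenotype as a term, a comparison added after these values were seen, all S minus all NS gave 0.39 for Aif1 (SE 0.14, 95% interval 0.11 to 0.68), and 15 of 16 S rats lay above the NS mean. The unadjusted p was 0.00865 and the adjusted p from limma was 0.308, 0 of 6 markers and 0% of all probesets were called at an adjusted p under 0.05, and 12.2% of all probesets had an unadjusted p under 0.05.

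Rats of the same group differed from each other. The pooled within-group SD on the log2 scale was 0.23 for Csf1r, 0.35 for C1qa, 0.42 for Aif1, 0.43 for C1qc, 0.55 for C1qb and 0.56 for Ptprc. Among probesets whose mean signal lay within 0.5 log2 units of the marker's own, this SD stood at percentile 82.7 for Csf1r, 91.9 for C1qc, 94.2 for Aif1, 95 for Ptprc, 96.6 for C1qa and 98.2 for C1qb. The SD was larger in AI than in AU rats for 5 of 6 markers, with ratios of 2.14 for Ptprc, 1.72 for Csf1r, 1.61 for C1qc, 1.40 for C1qb and 1.33 for Aif1, while C1qa had 0.986. No test was made of these ratios, and over all probesets 60.9% had the larger SD in AI rats, with a median ratio of 1.09.

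Some rats were high or low for several of the genes at once. AI-NS replicate 7 had log2 signals of 10.81 for C1qa, 9.73 for C1qb and 8.68 for C1qc, the highest of all rats, with 10.30 for Csf1r, 8.75 for Aif1 and 6.41 for Ptprc. AI-S replicate 2 had the highest Csf1r and Aif1 signals, 10.68 and 9.13, with 10.58 for C1qa and 7.16 for Ptprc. At the other end, AI-NS replicate 1 had the lowest Aif1 and C1qb signals, 7.02 and 7.45. AU-S replicate 3 had the lowest C1qa signal, 9.35, and a Ptprc signal of 5.22. Other rats were high for some markers and low for others. AI-S replicate 1 was high for C1qa at 10.75 and C1qc at 8.10 but the lowest of all for Ptprc, and AI-S replicate 5 was the highest for Ptprc with a C1qa signal of 10.09. AU-NS replicate 4 had the highest C1qa and C1qc signals of its group, 10.52 and 8.03, with a Ptprc signal of 5.49. AU-S replicate 1 had the highest C1qa and C1qb signals of its group, 10.54 and 9.17, and the lowest Aif1 signal, 7.72.

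**Figure D3:**
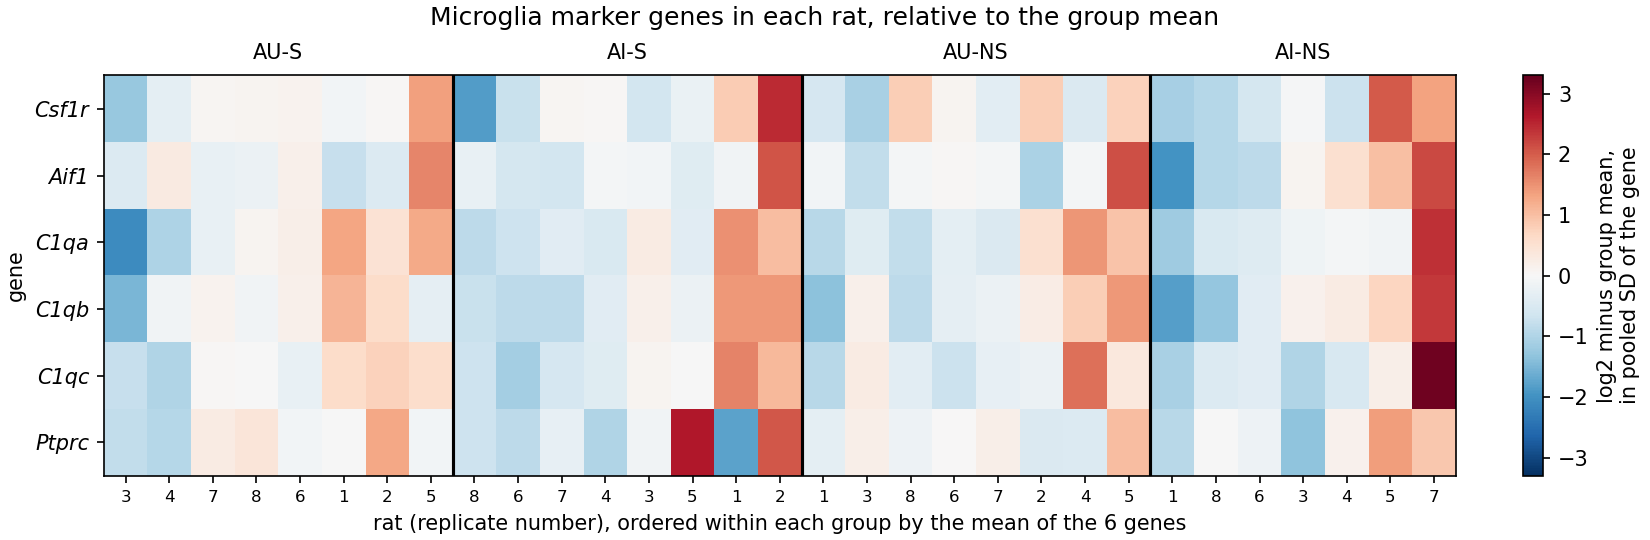
Each column is a rat, ordered within its group by the mean over the 6 genes, each row is a marker, and the color is the log2 signal minus the group mean in units of the gene's pooled SD. AI-S replicate 2 and AI-NS replicate 7 are above their group means for all 6 genes, and Ptprc departs from the C1q rows in AI-S replicates 1 and 5 and, less far, in AU-NS replicate 4.

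To measure how far the markers varied together, group means were subtracted and Pearson's r was computed over the 31 arrays for all 15 pairs, with p from 100000 permutations and Benjamini-Hochberg adjustment over the pairs. All 15 were positive and 13 had an adjusted p under 0.05 (11 by Spearman's rho). The C1q chains were the closest: r was 0.872 for C1qa with C1qc (rho 0.835), 0.860 for C1qa with C1qb (rho 0.847) and 0.811 for C1qb with C1qc (rho 0.785), each with a permutation p of 1e-05, the smallest these permutations can give, and an adjusted p of 5e-05. Without the 2 arrays farthest from the median of the first gene these were 0.866, 0.802 and 0.743. Within the arrays of 1 phenotype or 1 task the C1q pairs ran from 0.686 to 0.814 in AU, 0.874 to 0.953 in AI, 0.835 to 0.872 in S and 0.793 to 0.901 in NS arrays.

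Csf1r and Aif1 had an r of 0.681 with each other (adjusted permutation p = 0.000337, rho 0.552 with an adjusted p of 0.00396, and r = 0.582 without the 2 farthest arrays). Between 1 of these 2 genes and a C1q gene, the 6 values of r were 0.508 to 0.632. In the pairs of Aif1 with C1qa, C1qb and C1qc r went from 0.538, 0.632 and 0.508 to 0.367, 0.464 and 0.328 without the 2 farthest arrays, and for C1qc rho did not pass (rho 0.271, adjusted p = 0.150, permutation test). Aif1 and C1qb had an r of 0.191 in AU and 0.886 in AI arrays, a difference that was not tested. Ptprc had the lowest values, with r from 0.255 to 0.426 in its 5 pairs, of which those with Csf1r, Aif1 and C1qb passed. By ranks it was those with C1qa (rho 0.387), C1qb (rho 0.440) and C1qc (rho 0.545) that passed, at an adjusted permutation p of 0.0444, 0.0217 and 0.00491. For Csf1r with Ptprc r was 0.426 (adjusted permutation p = 0.0234), with a rho of 0.331 (adjusted permutation p = 0.0813). Without the 2 farthest arrays r was 0.175, so its size leaned on those rats. It was positive within AU (0.273), AI (0.473), S (0.36) and NS (0.576) arrays.

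The 2 rats highest over the markers, AI-NS replicate 7 and AI-S replicate 2, carried part of these relations. Without both of them, chosen after the values were seen, all 15 values of r stayed positive but 7 in place of 13 had an adjusted permutation p under 0.05. The 3 C1q pairs then had 0.821, 0.803 and 0.723, and Csf1r with Aif1 0.533. Removing the control 3′ minus 5′ difference from the signals as well left 13 pairs called and C1q values of 0.826 to 0.879.

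**Figure D4:**
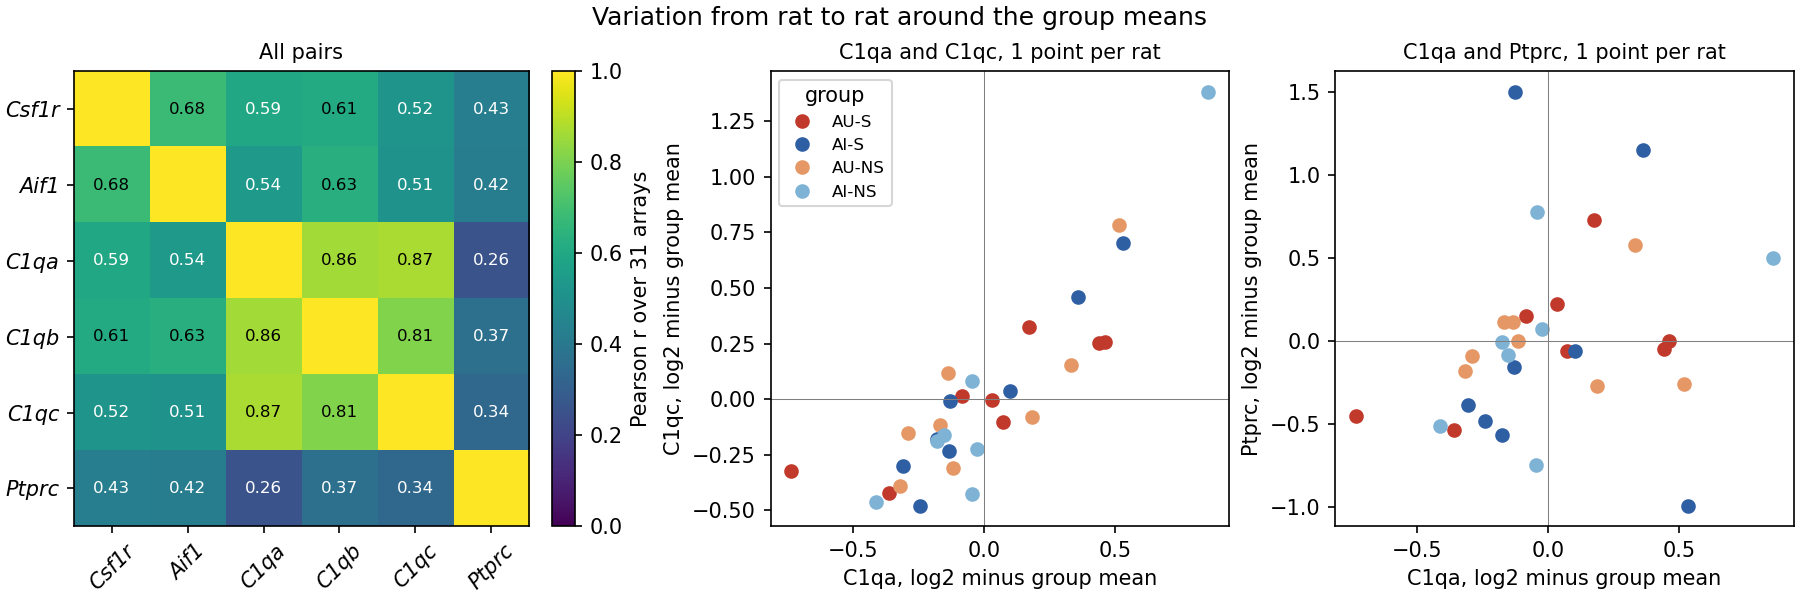
Left, Pearson's r between the microglia markers over 31 arrays with group means subtracted. Middle and right, log2 signal minus group mean of C1qc and of Ptprc (vertical axes) against that of C1qa (horizontal axes), 1 point per rat, colored by group: C1qc follows C1qa with r = 0.872, and Ptprc scatters more, with r = 0.255 and a rho of 0.387.

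The 3 C1q genes lie side by side in the rat genome, which is 1 property that the rats' signals did not define. In the RefSeq annotation of GRCr8, C1qb (chr5:154402276-154407827), C1qc (chr5:154410845-154414208) and C1qa (chr5:154417086-154419933) fill 17658 bases of chromosome 5 that hold no gene but these 3. Aif1 is on chromosome 20 (chr20:3651435-3657341) and Ptprc on chromosome 13 (chr13:52147717-52259810). C1qa and C1qb, whose signals moved together, are shown beside Ptprc, whose r with them was lower. That r was 0.255 with C1qa (rho 0.387) and 0.370 with C1qb (rho 0.440). Printed are the 250 bases before the start in the RefSeq promoter table, which for Ptprc is a transcript start 64 bases within the annotated gene. All 3 are on the minus strand and printed 5′ to 3′, and capitals mark GAGGAA or its reverse complement TTCCTC, the core of the site bound by PU.1, a transcription factor of macrophages and microglia.
C1qa, chr5:154419934-154420183: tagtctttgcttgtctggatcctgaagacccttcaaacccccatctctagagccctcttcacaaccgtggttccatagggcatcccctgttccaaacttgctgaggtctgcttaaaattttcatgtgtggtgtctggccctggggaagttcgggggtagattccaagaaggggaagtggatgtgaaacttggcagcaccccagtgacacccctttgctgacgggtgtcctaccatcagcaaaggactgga
C1qb, chr5:154407828-154408077: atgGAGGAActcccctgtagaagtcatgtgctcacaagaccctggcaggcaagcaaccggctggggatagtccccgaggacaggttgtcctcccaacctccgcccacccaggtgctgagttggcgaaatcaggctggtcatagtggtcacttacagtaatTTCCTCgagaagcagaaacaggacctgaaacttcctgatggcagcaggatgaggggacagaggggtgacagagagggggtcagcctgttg
Ptprc, chr13:52259747-52259996: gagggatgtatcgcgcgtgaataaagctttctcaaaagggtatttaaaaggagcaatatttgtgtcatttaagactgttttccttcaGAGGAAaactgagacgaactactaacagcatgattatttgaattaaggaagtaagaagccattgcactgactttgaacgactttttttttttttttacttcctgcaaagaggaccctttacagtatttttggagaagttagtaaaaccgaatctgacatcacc

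On either strand of these windows C1qb held 2 matches, Ptprc 1 and C1qa 0, and 23.3% of the 33469 promoters in the table held at least 1. The windows of Csf1r, Itgam and Cx3cr1, not printed here, held 2, 2 and 0 matches. Of the 250 bases of these windows, 227, 96 and 250 lie within the annotated gene. The longer form GAGGAAGT was in none of these 6 windows (0 matches) and in 2.04% of all promoters. A match is only a run of letters, and its absence from a window says nothing of the factor.

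Genes outside the list were ranked by how closely they followed the markers, as Pearson's r over the 31 arrays between the group-centered signal of a probeset and the mean of the 6 group-centered and scaled markers, given here without a test. The 10 closest were Anxa3, an annexin, at 0.894, the lysosomal proteases Ctsh at 0.878 and Ctsz at 0.866, the ribonuclease Rnaset2 at 0.827, Laptm5, a lysosomal membrane protein of blood-derived cells, at 0.788, the lysosomal cholesterol carrier Npc2 at 0.784, Tmem176a at 0.776, the protease cathepsin S, Ctss, at 0.759, the lymphotoxin receptor Ltbr at 0.753 and Fxyd5 at 0.752. Without the 2 farthest arrays these ran from 0.610 for Ltbr to 0.854 for Ctsh. The Laptm5 value is from a dimmer probeset of that gene, and its brightest probeset had an r of 0.646. The 3 lowest were B3galnt1 at -0.674, the reelin receptor Lrp8 at -0.657 and Mphosph8 at -0.643.

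Known microglial genes outside the 9 also followed them from rat to rat. Of 21 measured genes on a list of other microglia and brain myeloid genes (38 on the list) 21 had a positive r with the marker mean and 10 had an r over 0.5, with a median of 0.498, while over all probesets the median was -0.017 and 1.15% had an r over 0.5. At the brightest probeset of each gene, Ctss at 0.759 and the kinase Lyn at 0.743 were highest. Of genes often used to mark homeostatic microglia, Tmem119 had 0.498, the list median, the purinergic receptor P2ry12 0.273 and the receptor Gpr34 0.241. Low values on this list also included 0.252 for Mertk and 0.256 for Siglec5.

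Among 12 ligands, co-receptors, adaptors and regulators that work with the markers, 6 were measured and 4 had an r over 0.5: Fcer1g, a signaling adaptor of the same kind as Tyrobp, at 0.737, Itgb2, the integrin chain that pairs with Itgam, at 0.670, the sialic acid receptor Cd33 at 0.584, and Csf1 at 0.518. The other Csf1r ligand, Il34, had 0.285, and Cx3cl1, the neuronal ligand of Cx3cr1, had 0.196. Of 10 measured genes of microglial activation (31 on the list) 6 had an r over 0.5, among them Tspo, the target of microglial imaging tracers, at 0.699, and the antigen presentation genes B2m at 0.693, Cd74 at 0.649 and RT1-Da at 0.627. Lower on this list were Il18 at 0.452, Axl at 0.327, Apoe at 0.316 and Lpl at -0.082. Among 6 measured complement genes (20 on the list) C3, the central component, had 0.697 and the C1 inhibitor Serping1 0.589. C1s and C1r, the proteases that C1q activates, had 0.293 and 0.115.

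Genes of other cells had lower list medians of r. Of 8 astrocyte genes 1, Gfap, had an r over 0.5 at 0.630, with a median of 0.191, and of 7 oligodendrocyte, 6 endothelial and 8 neuronal genes 0 had, with medians of 0.206, -0.00018 and -0.11. Perivascular macrophages and blood cells also carry Ptprc and some of the other markers. Of 8 perivascular macrophage genes only Lyve1 was measured, with an r of -0.166, of 8 red blood cell genes only Hbb at -0.185, and of 18 blood leukocyte genes 0 were measured, so the part of those cells in the Ptprc signal was not tested.

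**Figure D5:**
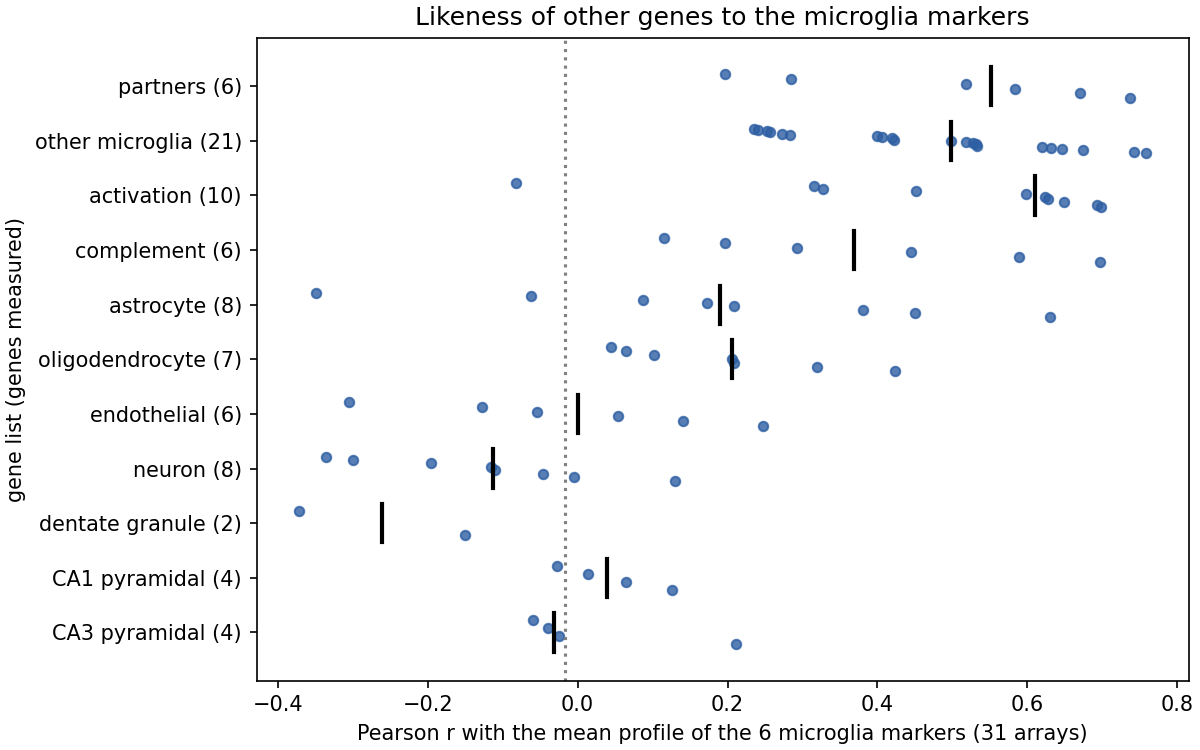
Pearson's r (horizontal axis) between each measured gene of 11 lists and the mean of the 6 microglia markers over 31 arrays with group means subtracted, 1 point per gene at its brightest probeset, with the number of genes after the name of the list. Black bars are list medians, such as 0.61 for activation and -0.11 for neuron, and the dotted line is the median of all probesets at -0.017.

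In the comparisons between groups 0 genes passed the test at the brightest probeset in the lists of partners, other microglia, activation and complement. For AU-S minus AI-S 19 of the 21 other microglia genes were negative with a median of -0.11, and for AI-S minus AI-NS 19 of 21 were positive with a median of 0.12, the AI-S arrays being common to both. At an unadjusted p under 0.05 for AU-S v AI-S there were 6 of the 21, all lower in AU-S, where 12.3% of all probesets were and 0 of the 6 markers. These were Fcgr2b, an inhibitory antibody receptor, at -0.76, Gpr34 at -0.47, P2ry12 at -0.32, the G protein regulator Rgs10 at -0.27, Apbb1ip at -0.21 and the actin bundler Lcp1 at -0.20, with a smallest adjusted p of 0.314 from limma. The activation list had 3 of 10 there, Lyz2 at -0.40, B2m at -0.15 and Apoe at 0.13, with a smallest adjusted p of 0.291, and the partner and complement lists had 0 of 6 each. For AU-NS v AI-NS 0 of the 21 and 1 of the 10 activation genes had an unadjusted p under 0.05 from limma, where 11.5% of all probesets did. For AU-act v AI-act 3 of the 21 and 0 of the 10 did, where 19.5% of all probesets did. For AU-act minus AI-act 16 of the 21 were negative with a median of -0.054. The smallest p-values there belonged to Lcp1 at -0.17 (SE 0.069, limma adjusted p = 0.147), Gpr34 at -0.27 (SE 0.11, adjusted p = 0.180) and the tetraspanin Cd53 at -0.26 (SE 0.12, adjusted p = 0.242). When every probeset was counted, 1 of 26 passed, for the phagocytic receptor Mertk, which was higher in AU-act than in AI-act by 0.27 (SE 0.065, limma adjusted p = 0.0103), while its brightest probeset had 0.056 (SE 0.050, adjusted p = 0.582).

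The 6 partners had AU-act minus AI-act log2 differences of -0.18 for Itgb2 (SE 0.14), -0.13 for Fcer1g (SE 0.11), -0.10 for Cd33 (SE 0.076), -0.048 for Csf1 (SE 0.056), 0.082 for Cx3cl1 (SE 0.062) and 0.11 for Il34 (SE 0.089), with a limma adjusted p of 0.503 or more for each. Of the 10 activation genes 8 were negative with a median of -0.16, and the 3 with the smallest p were Apoe, a lipid carrier, at 0.089 (SE 0.046), the lysozyme Lyz2 at -0.21 (SE 0.11) and the lipase Lpl at 0.094 (SE 0.051), with a limma adjusted p of 0.282, 0.293 and 0.316. Of the 6 complement genes 5 were negative with a median of -0.029. They included Serping1 at -0.18 (SE 0.19), C1s at -0.077 (SE 0.099) and C3 at -0.018 (SE 0.26), while Clu, an inhibitor of complement lysis, had 0.035 (SE 0.060). Over all probesets the median of this comparison was 0.0072.

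Markers of other cells were set beside these values. At the brightest probeset AU-act minus AI-act was positive for 6 of 8 neuronal, 6 of 8 astrocyte, 6 of 7 oligodendrocyte and 4 of 6 endothelial genes. The list medians were 0.080, 0.030, 0.073 and 0.073, and 53.3% of all probesets were positive. Among those of the other sign were Camk2a at -0.10, Aqp4 at -0.011 and Flt1 at -0.011. Of 8 neuronal genes, Syt1, the calcium sensor of vesicle release, was higher in AU-act than in AI-act by 0.28 (SE 0.070, limma adjusted p = 0.0139), and Nefl and Snap25 had 0.098 (adjusted p = 0.0708) and 0.060 (adjusted p = 0.157). The 3 smallest p-values of the astrocyte list belonged to Slc1a2 at 0.15, Gfap at 0.081 and Aldh1l1 at 0.073, those of the oligodendrocyte list to Mbp at 0.062, Mobp at 0.073 and Mog at 0.11, and those of the endothelial list to Vwf at 0.15, Kdr at 0.16 and Cldn5 at 0.090, with 0 of these 9 past the test. Gja1, Slc1a3, Mobp, Mbp and Nefl passed for AU-act v AI-act, higher in AU-act, at a probeset other than their brightest. The gap junction gene Gja1 had 0.69 there (limma adjusted p = 0.0293) and -0.016 at its brightest, and the glutamate transporter Slc1a3 had 0.20 (adjusted p = 0.0190) and 0.019. Mobp had 0.39 (adjusted p = 0.00313) beside the 0.073 given, Mbp 0.16 (0.0256) beside 0.062 and Nefl 0.14 (0.0143) beside 0.098. That probeset of Mobp also passed for AU-S v AI-S at 0.41 (adjusted p = 0.0829). The part of such shifts in other cell types in the marker values was not tested. Lyve1 had -0.47 (SE 0.31) and Hbb 0.11 (SE 0.25). The 4 measured CA3 pyramidal genes had summed log2 signals of 14.77 to 15.32 over the 31 arrays and a median of 0.072 for AU-act minus AI-act, with Cpne4 at 0.11 (adjusted p = 0.118), Nptx1 at 0.075 and Grik4 at 0.068. A dimmer probeset of Bok, on the same list, passed at 0.23 (adjusted p = 0.0353), while its brightest had 0.052. CA3 is bordered by the dentate gyrus and CA1, and the 4 measured CA1 genes had a median of -0.042 for AU-act minus AI-act.

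The 2 dentate granule cell markers that were measured, Prox1 and Calb1, did not pass in any comparison. They had a median log2 difference of -0.45 for AU-S minus AI-S and of 0.49 for AI-S minus AI-NS, the same signs as the microglia markers, and both had an unadjusted p under 0.05 in each and an adjusted p of 0.209 or more from limma. Their summed log2 signal ran from 10.78 to 11.80 in AI-S, 10.57 to 11.15 in AU-S, 10.67 to 11.15 in AU-NS and 10.53 to 11.30 in AI-NS. From rat to rat within the groups the relation was the other way, with an r of -0.372 for Prox1 and -0.151 for Calb1 with the mean of the microglia markers. The part of the dissection in the group differences was not tested.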

How the data were processed

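RNA from CA3 of each rat was hybridized to 1 Affymetrix rat genome array. The deposited values are log2 signals that the authors made with gcRMA (background correction, quantile normalization and summary of probes; version not given in the sources used here), and the authors left out 1 AI-NS array as an outlier. Array medians ran from 8.97 to 9.14, and an array's correlation with the other arrays averaged 0.981 to 0.989. Precision is limited by the number of rats.

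Genes were named from the platform annotation (12242 probesets with 1 gene, 293 with several and 3669 unnamed here). The methods' lower limit of 4 on the mean log2 signal removed no probeset, since the smallest mean in the table was 5.0002. The table holds fewer probesets than the array described in the paper, so shares of all probesets are shares of those in the table. A gene not measured here may have a probeset on the array that the table leaves out. Groups, taken from the sample titles, were tested with limma 3.58.1 under R 4.3.3 (lmFit and eBayes, two-sided, Benjamini-Hochberg adjustment over 16204 probesets), at adjusted p-values under 0.05 for pooled groups and under 0.1 otherwise. The scripts were tested on simulated data. The microglia markers and the lists were chosen with earlier results of these data known. Genes named are the markers, their 6 measured partners, the 3 with the smallest p for AU-act v AI-act on each list and any past the threshold, and the 10 highest and 3 lowest in likeness. Other genes were picked after their values were seen. Brightest probesets stood for genes in lists. Alternatives are given in the closing section. Sequences and positions are from RefSeq (GRCr8), whose promoter table held 6 of the 9 markers. Figures were drawn with matplotlib 3.10.9.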

Additional observations from a re-analysis of the deposited data

Results flagged for a closer look

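In 7 of the 24 combinations of a marker and a group, 1 rat stood far from the others by Dixon's criterion, which chance meets in about 1 group of 20. All 7 lay on the high side. For Aif1 these were AU-S replicate 5 at a log2 signal of 8.706 (next rat 8.159), AI-S replicate 2 at 9.135 (next 8.248) and AU-NS replicate 5 at 8.556 (next 7.683). For C1qa AI-NS replicate 7 was at 10.81 (next 9.929). For C1qc the rats were AU-NS replicate 4 at 8.027 (next 7.396) and AI-NS replicate 7 at 8.684 (next 7.382). For Ptprc AU-NS replicate 5 was at 6.321 (next 5.86).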

How the results depend on the processing

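Across 214 other fits limma, or SAM in 5 of the comparisons, called 0 markers, with a smallest adjusted p of 0.185. In 7 of these fits, with a limit of 6 on the mean signal, Ptprc was not tested. Leaving out the limit of 4 changes nothing, since it removed no probeset. Of 272 differences of single markers under alternatives 6 took the other sign, and of 589 with 1 array left out 31 did, with 0 past a threshold in either. With array weights C1qb had -0.0481 for AU-NS minus AI-NS, and C1qc -0.0691 and Ptprc -0.0161 for AI-S minus AI-NS. With RNA quality (the 3′ minus 5′ measure) in the model C1qb had -0.295 and C1qa -0.0602 for AU-NS minus AI-NS. With 1 array left out the sign was not fixed for C1qb in AU-S minus AI-S (-0.151 to 0.0559), AU-NS minus AI-NS (-0.12 to 0.261), AU-act minus AI-act (-0.0903 to 0.0728), AI-S minus AI-NS (-0.00717 to 0.373) and AU-S minus AU-NS (-0.0561 to 0.168). The same held for C1qc in AU-NS minus AI-NS (-0.17 to 0.172), AI-S minus AI-NS (-0.00328 to 0.327) and AU-S minus AU-NS (-0.166 to 0.00235), for C1qa in AU-NS minus AI-NS (-0.0212 to 0.196) and AU-act minus AI-act (-0.0902 to 0.000481), for Csf1r in AU-NS minus AI-NS (-0.09 to 0.0314), and for Ptprc in AI-S minus AI-NS (-0.115 to 0.241) and AU-S minus AU-NS (-0.179 to 0.00692). Aif1 kept its sign in every fit of a difference between 2 groups. The cause was not tested. Without AI-NS replicate 7 and AI-S replicate 2 the correlated pairs went from 13 to 7.

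Rats that share a replicate number did not deviate together (r from -0.391 to 0.311, 6 of 30 pairs over 0.1, and 3 arrays closest to their own number). The replicate block called 0 markers and turned Ptprc in AI-S minus AI-NS to -0.0652.

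For AU-S v AI-S the 67 called probesets became 9 with median centring, 12 with quantile normalization, 551 with array weights, 3 with the replicate block, 1 with RNA quality in the model, 172 with SAM and 5 (without AI-S replicate 6 or AU-S replicate 3) to 448 (without AI-S replicate 7) with 1 array left out. For AU-NS v AI-NS the 0 became 40 with array weights, 163 in a fit of all 4 groups and 208 without AI-NS replicate 3. For AU-act v AI-act the 893 became 591 with the block and 1 with RNA quality in the model. Counting every probeset added 1 gene, Mertk, to the other microglia list.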
